A study of Homo sapiens with 8 samples.

Results

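The comparison set HepG2 cells given quercetin against untreated HepG2 cells 12 h after treatment, and it rests on 2 of the 8 arrays of the series. HepG2 is a line from a human hepatocellular carcinoma that still makes many plasma proteins of the hepatocyte. Cultures of this line were deprived of serum and then kept in serum-free medium, either alone (control) or with 3 µM quercetin, so both groups share the lack of serum. The arrays come from cells harvested after 2, 4, 12 or 24 h, with 1 array for each treatment and time. Every difference given here is the log2 level on the quercetin array at 12 h minus that on the control array at 12 h, so a difference of 1 is a 2-fold one. With 1 array a side there is no replicate error and no test. A difference compares these arrays, not the conditions, and the spread of the other 3 pairs (2, 4 and 24 h) is given as a yardstick.

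Quercetin is a flavonol found in many edible plants. Electrophilic products of such polyphenols modify KEAP1, the protein that marks the transcription factor NRF2 for breakdown, and NRF2 then drives genes of glutathione and thioredoxin metabolism and of carbonyl reduction through antioxidant response elements. Flavonoids also bind the aryl hydrocarbon receptor (AhR), which acts with ARNT on xenobiotic response elements and is known above all for the cytochrome P450 CYP1A1. Liver cells conjugate quercetin with glucuronate and sulfate and export the products.

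Of 19775 gene symbols on the array, 13298 had a brightest probe set with a mean over the 8 arrays beyond 7.43, the median of the whole array, and this probe set stands for the gene. Among these genes the median difference at 12 h was 0.05, with an SD of 0.25 across genes. The SD was 0.34, 0.22 and 0.29 in the pairs at 2, 4 and 24 h, so the 12 h pair was not the widest. At 12 h 59.3% of genes were higher with quercetin, against 41.9%, 45.7% and 33.8% in the other pairs. After cyclic loess the share at 12 h was 46.9%, and after quantile normalization 46.5%, and the median was -0.02 under both. The median difference was 0.02 in the dimmest quintile of genes and 0.11 in the brightest, so small positive differences of bright genes follow the whole array. Transcripts spiked in for hybridisation averaged 11.19 and 11.35 on the control and quercetin arrays at 12 h. They averaged 11.24 on the 2 h control array and between 11.83 and 12.11 on the other 5.

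CYP1A1, the cytochrome P450 that oxidises planar aromatic compounds and the best known AhR target, had the largest positive difference of the 13298 genes. It read 8.58 on the control and 10.44 on the quercetin array at 12 h, a difference of 1.86 or 3.62-fold. At 2, 4 and 24 h its controls read 9.52, 10.68 and 8.51 and its quercetin arrays 10.90, 10.91 and 8.80. The 12 h quercetin level thus lay below the 4 h control level. The control arrays at 12 and 24 h were the low ones, while quercetin was still near its early level at 12 h. Against the mean of the controls at 4, 12 and 24 h the difference was 1.18. CYP1A1 has 1 probe set above the filter, so no second probe set bears on it. In bulk RNA such as this, a change in the share of cells and a change in RNA per cell cannot be told apart.

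The bases before the CYP1A1 start are shown because they hold the short core that AhR binds. In each promoter the 250 bases before the RefSeq start were searched on both strands for GCGTG, the core of the xenobiotic response element. The window is chr15:74725531-74725630 of GRCh38.p14, minus strand, and the capitals mark the core, whose first base lies 57 bases before the start.
CYP1A1: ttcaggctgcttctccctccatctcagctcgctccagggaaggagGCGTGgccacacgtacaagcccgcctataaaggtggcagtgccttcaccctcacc
GCGTG stood in 32.2% of 35116 promoters, or 36.2% of 27305 genes with an entry, and in 4 of the 6 AhR list members with an entry, CYP1A1, TIPARP, SLC7A5 and NFE2L2. This short core is common, and the enhancer best known for AhR binding at CYP1A1 lies further upstream than this window.

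Other AhR targets had smaller differences. Of 7 measured list members, 6 were higher, with a median of 0.18, and 3 were at least 0.5 higher, where 4.19% of all genes were. Against the mean of the controls at 4, 12 and 24 h 4 of the 7 were higher, with a median of 0.13. For all genes that share was 47.7% and the median -0.01. From the controls at 2, 4 and 24 h 4 of the 7 were again higher, with a median of 0.14. SLC7A5, the light-chain neutral amino acid transporter, read 12.02 in control and 12.64 with quercetin, its highest level on the 8 arrays. NQO1, a quinone reductase that NRF2 also drives, read 13.08 and 13.60, and its other probe sets differed by 0.42 and 0.65. CYP1A2, a close relative of CYP1A1, differed by 0.18. TIPARP, a mono-ADP-ribosyltransferase that restrains AhR, was the one member lower within the 12 h pair, at 9.48 in control and 9.24 with quercetin. Its 4 control levels lay between 9.31 and 9.95, and all 4 quercetin levels between 9.21 and 9.68. All 7 probe sets of the 3 members with several probe sets were higher at 12 h. These 7 include the brightest probe sets already counted, and no like share over all genes is given here.

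AKR1B10, an aldo-keto reductase that reduces aldehydes and retinal, had the highest level of its 8 arrays with quercetin at 12 h. It read 10.47 in control and 12.11 with quercetin, a difference of 1.64 or 3.11-fold. The controls at 2, 4 and 24 h read 10.03, 10.01 and 10.56, and the quercetin arrays at those times 10.25, 11.35 and 11.17. All 4 controls therefore lay between 10.01 and 10.56, and the quercetin arrays at 4, 12 and 24 h stood above each. Its difference from the mean of the controls at 4, 12 and 24 h was 1.76, larger than within the pair. AKR1B10 has 1 probe set above the filter.

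The NRF2 list as a whole was higher at 12 h. Of its 37 genes 33 passed the filter, and of these 32 were higher with quercetin, with a median of 0.36, where the median over all genes was 0.05. The median was 0.07, 0.24 and 0.04 in the pairs at 2, 4 and 24 h, so the 12 h value was the largest of the 4. At least 0.5 higher were 8 members, AKR1B10, EPHX1, SRXN1, GSR, MGST1, OSGIN1, TALDO1 and NQO1, and SLC7A11, the cystine transporter, was the one member that was lower, by -0.04. Across the probe sets of the 18 members that have several, 43 of 50 were higher, and in 13 of the 18 genes all were. These 50 include the brightest probe sets already counted, and no like share over all genes is given here. The quercetin array at 12 h stood above all 4 controls in 15 of the 33 members (45.5%), where 9.08% of all genes did. Set against the mean of the controls at 4, 12 and 24 h, 32 of the 33 were higher, with a median of 0.28 beside -0.01 for all genes. That mean still holds the 12 h control. Without it, from the controls at 2, 4 and 24 h, 25 of the 33 were higher, with a median of 0.22 beside -0.04 for all genes. The list was chosen with earlier results of these arrays known, so this direction is a description.

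EPHX1, microsomal epoxide hydrolase, read 11.54 in control and 12.81 with quercetin, a difference of 1.27. Its other controls read 12.57, 12.02 and 12.53, so the control array at 12 h was the lowest of the 8 and the quercetin array the highest. SRXN1, which restores overoxidised peroxiredoxins, read 10.54 and 11.19 at 12 h. Its highest level was 12.14 with quercetin at 4 h, and the 12 h quercetin level lay below the 2 h control level of 11.30. GSR, which regenerates reduced glutathione, read 11.40 and 12.01, and its second probe set read 10.02 and 10.58. Its probe sets thus differed by 0.62 and 0.56, and the quercetin array at 12 h was the highest of the 8.

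MGST1, a membrane-bound glutathione transferase, read 12.93 in control and 13.55 with quercetin. Its 2 other bright probe sets differed by 0.46 and 0.73 and a dimmer one by -0.02. OSGIN1, an oxidative stress growth inhibitor, read 8.41 and 9.0, and this level lay below the 24 h control of 9.18. These members were named for the size of the difference. Chosen after their values were seen, TALDO1, an enzyme of the pentose phosphate pathway, differed by 0.58, TXNRD1, thioredoxin reductase, by 0.47, SQSTM1, an autophagy receptor, by 0.47, and GCLC and GCLM, the subunits of the first enzyme of glutathione synthesis, by 0.38 and 0.34. HMOX1, heme oxygenase, read 9.80 and 9.84, a difference of 0.03. NFE2L2, which encodes NRF2 itself, read 12.09 and 12.27 with its bright probe set.

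The next promoter windows are shown because the letters TGACNNNGC, the core of the antioxidant response element, recur near the start of several of these genes. Both strands were searched in the 250 bases before each RefSeq start, the capitals mark the match on either strand, and the build is GRCh38.p14. The EPHX1 window is chr1:225825231-225825330 (plus strand), with the match 78 bases before the start. TXNRD1 has matches at separate start sites, in chr12:104215635-104215734 and chr12:104286885-104286984 (plus strand), 99 and 102 bases before the start. The GCLM window is chr1:93909431-93909530 (minus strand), with the match 34 bases before the start.
EPHX1: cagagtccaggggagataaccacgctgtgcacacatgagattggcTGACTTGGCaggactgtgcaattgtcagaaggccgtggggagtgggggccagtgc
TXNRD1, first start site: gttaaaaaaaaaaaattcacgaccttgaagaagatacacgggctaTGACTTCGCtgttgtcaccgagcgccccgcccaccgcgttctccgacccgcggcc
TXNRD1, second start site: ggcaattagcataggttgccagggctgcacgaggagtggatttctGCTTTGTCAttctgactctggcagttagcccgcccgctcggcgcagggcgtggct
GCLM: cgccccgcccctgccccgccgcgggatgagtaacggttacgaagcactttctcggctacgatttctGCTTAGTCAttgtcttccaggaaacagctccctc
TGACNNNGC stood in 10.9% of all promoters and in the promoters of 6 of the 26 NRF2 list members with an entry, TXNRD1, GCLM, GPX2, PGD, IDH1 and EPHX1, beside 13.2% of all 27305 genes with an entry. The 12 h differences of these 6 ran from 0.13 for IDH1 to 1.27 for EPHX1. No promoter entry was used for AKR1B10 and GSR.

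**Figure D1:**
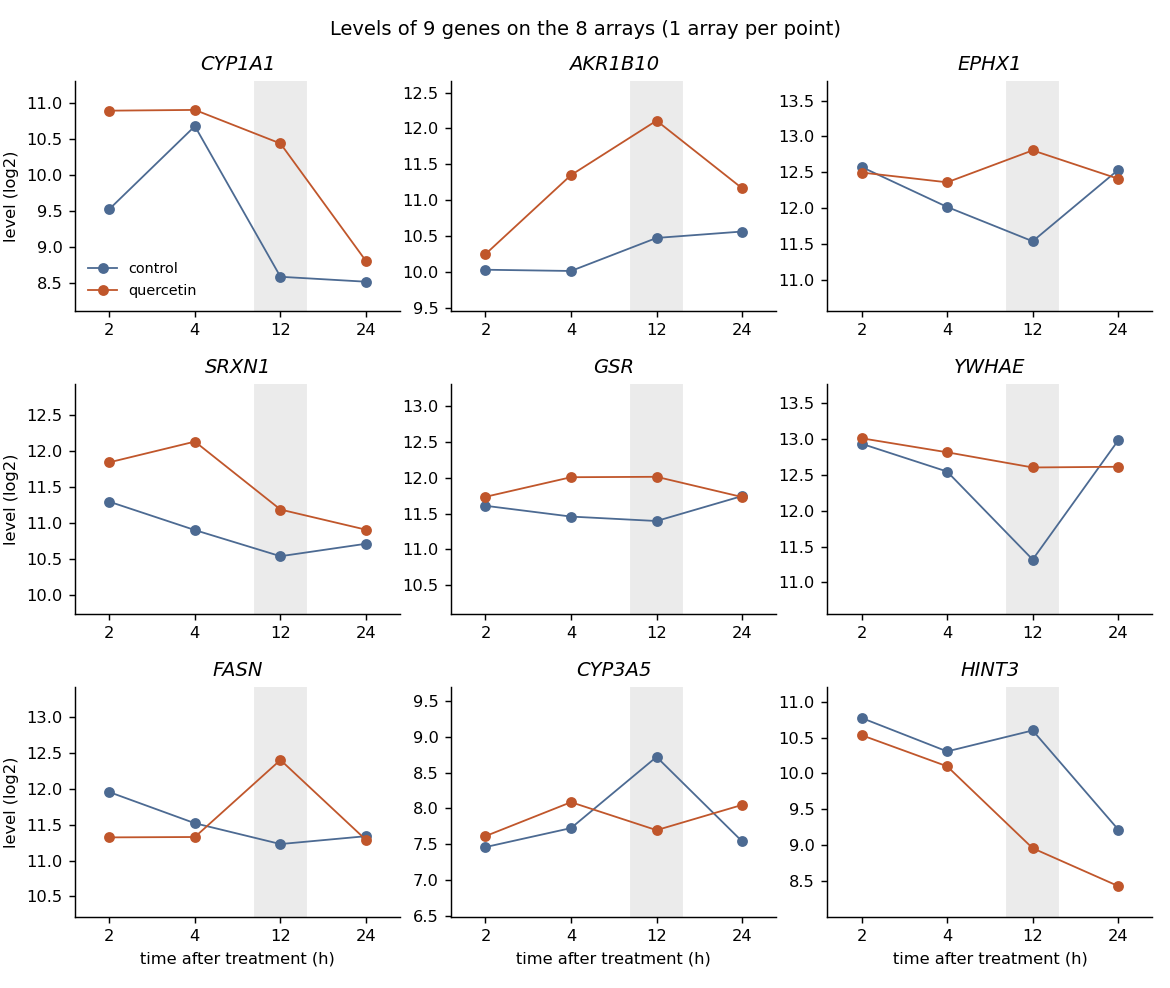
Log2 levels of 9 genes (vertical axis, each panel spanning the same range) at 2, 4, 12 and 24 h on the control arrays (blue) and quercetin arrays (orange), 1 array per point, with the 12 h pair shaded. AKR1B10 stands above flat controls (12.11 against 10.47 at 12 h), while for YWHAE the control array at 12 h (11.32) is the point that stands apart.

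Enzymes and transporters that conjugate and export flavonoids differed little. Of 15 measured members 11 were higher, with a median of 0.16, where 59.3% of all genes were. Among the 15, 1 gene was at least 0.5 higher, beside 4.19% of all genes. That gene was ABCC4, a multidrug transporter of the basolateral membrane, which read 8.82 in control and 9.40 with quercetin. Its other controls read 8.08, 8.24 and 8.33, so both arrays at 12 h were above all others. UGDH, which makes the glucuronate donor, read 12.69 and 13.08, and SULT1A1, a phenol sulfotransferase, 12.45 and 12.86. ABCC3 and ABCC2, further multidrug transporters, differed by 0.26 and 0.22. Against the mean of the controls at 4, 12 and 24 h 8 of the 15 members were higher, with a median of 0.01. For all genes the share was 47.7% and the median -0.01.

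Cytochromes P450 of families other than CYP1 went both ways. Of 17 measured members 8 were higher, with a median of -0.08, beside 59.3% and 0.05 for all genes. CYP4F11, a fatty acid and vitamin K hydroxylase, read 7.58 in control and 8.53 with quercetin. Its other 6 arrays lay between 7.34 and 7.73, so the quercetin array at 12 h was alone in being high. CYP3A5, a drug-metabolising enzyme, read 8.72 in control and 7.70 with quercetin, a difference of -1.02. Its other controls read 7.46, 7.73 and 7.54, so here the control array at 12 h stood apart and the quercetin array did not. CYP4F2 read 9.50 and 9.02. The CYP4F11 promoter also holds TGACNNNGC, 156 bases before the start in chr19:15934969-15935068 (GRCh38.p14, minus strand), and its window is shown because this gene is high on 1 array only.
CYP4F11: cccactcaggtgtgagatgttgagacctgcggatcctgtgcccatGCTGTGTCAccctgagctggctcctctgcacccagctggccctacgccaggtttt

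In all, 43 of the 13298 genes (0.323%) were at least 1 higher at 12 h and 3 (0.0226%) at least 1 lower. At a difference of 0.5 the counts were 557 (4.19%) higher and 160 (1.20%) lower. The pairs at 2, 4 and 24 h held 16, 6 and 31 genes at least 1 higher and 47, 3 and 20 at least 1 lower. Of the genes past 1 at 12 h, 93.5% were higher. That share was 84.4% after cyclic loess, with 27 higher and 5 lower, and 83.8% after quantile normalization, with 31 and 6. It was 33.3%, with 7 higher and 14 lower, when the quercetin array was set against the mean of the controls at 4, 12 and 24 h, which also brings in control cultures of other times. Of the 43 genes 6 were at least 1 higher by that measure: AKR1B10, CPLX2, CYP1A1, FASN, MYL9 and QSER1. The 18S rRNA control probe sets averaged 7.35 and 7.29 on the control and quercetin arrays at 12 h. They averaged 11.52 and 9.82 on the 4 and 24 h controls, and 8.57 on the 2 h control, which that mean leaves out. The 2 h control correlated with the 12 h quercetin array at 0.991, the 4 and 24 h controls at 0.985 and 0.978. The part of such array differences in these counts was not tested. When a gene's probe sets were averaged 14 genes were at least 1 higher and 1 lower, and 12 of the 14 were among the 43.

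The control array at 12 h was low in most of the 43 genes. In 36 of them it was the lowest of the 8 arrays, where it was the lowest for 20.2% of all genes. The quercetin array at 12 h was the highest of the 8 in 23 of them, against 6.48% of all genes, and it stood above all 4 controls in 28. Genes chosen for a large difference within a pair must tend to have a low control or a high quercetin level, and the 24 h pair had a like make-up, with its control the lowest in 26 of 31 genes and its quercetin array the highest in 16. In the 2 h pair these counts were 5 and 9 of 16. Against the mean of the controls at 2, 4 and 24 h, which leaves out the low control, 3 of the 43 genes (AKR1B10, CPLX2 and MYL9) were at least 1 higher and 14 at least 0.5.

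**Figure D2:**
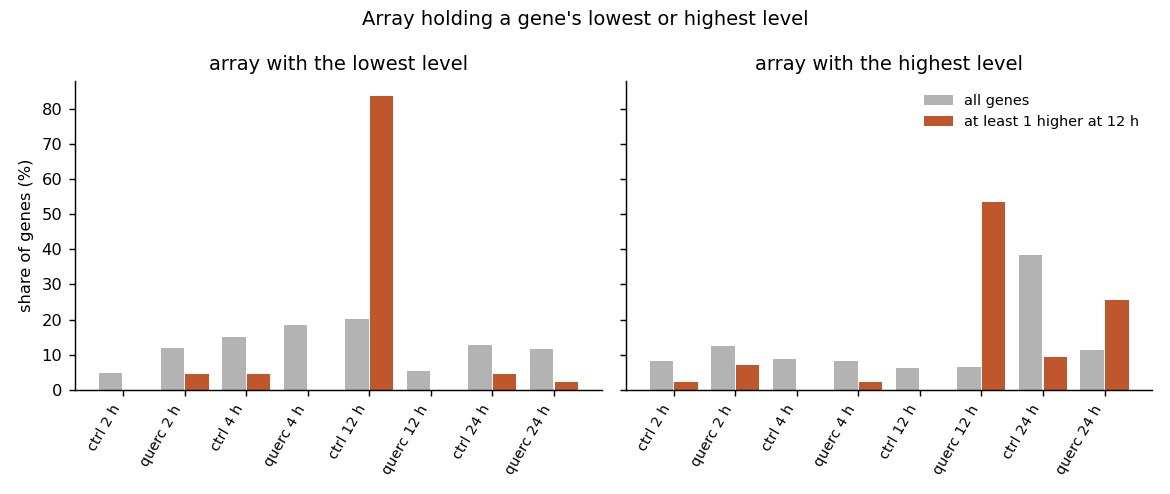
Share of genes (vertical axis, %) whose lowest level (left) or highest level (right) lies on each of the 8 arrays, for all 13298 genes (grey) and the 43 genes at least 1 higher at 12 h (orange). The control array at 12 h holds the lowest level of 83.7% of the 43 genes, and the quercetin array at 12 h the highest level of 53.5%.

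The 43 genes had varied roles. Besides CYP1A1, AKR1B10 and EPHX1, some act in the actin and membrane skeleton. ARHGDIA, a regulator of the actin skeleton, read 10.94 in control and 12.00 with quercetin, and MYL9, a myosin regulatory light chain, 8.54 and 9.59. TPM4, a tropomyosin, read 8.65 and 9.86, and EPB41L1, a spectrin-binding protein, 8.24 and 9.27. In all 4 genes the quercetin array at 12 h was the highest of the 8. PPP1R12A, the targeting subunit of myosin phosphatase, read 8.91 and 9.95, and was higher still on the 24 h quercetin array. Its other probe sets differed by -0.31 and 0.10, and those of EPB41L1 by 0.13 and 0.37. The list of myosin phosphatase and cytoskeleton regulators had 16 of 20 members higher, beside 59.3% of all genes. At least 0.5 higher were 2 members, beside 4.19% of all genes, and 1 was at least 0.5 lower, PPP1R12B at -0.56. The list median of 0.10 was -0.026 after cyclic loess or quantile normalization. Others act on chromatin or RNA: TPR (a nuclear pore protein, 1.40), MLLT10 (1.38), CNOT3 (a deadenylase subunit, 1.30), SRRM2 (a spliceosome protein, 1.30), KDM2A (a histone demethylase, 1.18), PRPF4 (1.06), KMT2C (a histone methyltransferase, 1.04) and BRD7 (1.01). Of these 8, TPR, KDM2A, PRPF4 and KMT2C were highest on the quercetin array at 12 h. None of the 8 is backed by other probe sets: those of MLLT10, SRRM2, KMT2C and BRD7 include one of the opposite sign, CNOT3 has 1 probe set above the filter, and each of TPR, KDM2A and PRPF4 has one within 0.05 of 0. These roles were sorted after the values were seen, and the splicing factor list had 0 of 43 members at least 0.5 higher.

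Metabolic and secretory genes among the 43 included FASN, fatty acid synthase, which read 11.23 in control and 12.40 with quercetin. The other 6 arrays lay between 11.29 and 11.96, so the 12 h quercetin array was high. Its second, dim probe set read 7.57 and 7.78. PKM, pyruvate kinase, read 12.40 and 13.42 with its bright probe set and 9.51 and 9.38 with the other, which differ in sign. F5, coagulation factor V, read 10.31 and 11.67 with the brightest probe set, while 2 others differed by 0.01 and -0.36. CALR, a chaperone of the endoplasmic reticulum, read 10.76 and 11.80, and both lay below the 12.51 to 13.09 of the other 6 arrays. QSER1, a protein that guards DNA from methylation at regulatory regions, read 10.03 and 11.69, and another bright probe set 10.87 and 10.98.

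Second probe sets backed few of the large differences. A gene was counted as backed when every other probe set of it above the filter had the same sign and at least 0.5. Of the 43 genes 15 had 1 probe set above the filter. Of the other 28, 4 were backed (14.3%), 12 had other probe sets of the same sign with at least 1 of them smaller than 0.5, and 12 had a probe set of the opposite sign (42.9%). The 3 genes at least 1 lower had 1 probe set each above the filter. Below the filter, a HINT3 probe set read 8.20 in control and 6.95 with quercetin (-1.25), and another differed by -0.12. Those of CYP3A5 below the filter differed by 0.15, -0.46 and 0.07, and those of TCP11L2 by -0.31 to 0.31. Backing was 16.4% of 280 genes at least 0.5 higher and 5% of 40 genes at least 0.5 lower that have several probe sets. In the pairs at 2, 4 and 24 h it was 10%, 13.4% and 9.4% of those at least 0.5 higher, and 16.9%, 9.2% and 7.8% of those at least 0.5 lower. At a difference of 1 it was 22.2% of 9 higher and 0% of 2 lower genes at 24 h. The 2 h pair had 33.3% of 6 higher and 25.9% of 27 lower genes, and the 4 h pair 100% of 2 higher genes. Over the 5583 genes with several bright probe sets, the brightest and the second differed in the same direction in 61.3% at 12 h, beside 66.4%, 56.4% and 59.3% at 2, 4 and 24 h. The correlation between them was 0.23 at 12 h. These points share arrays and often probes, so it is a description.

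**Figure D3:**
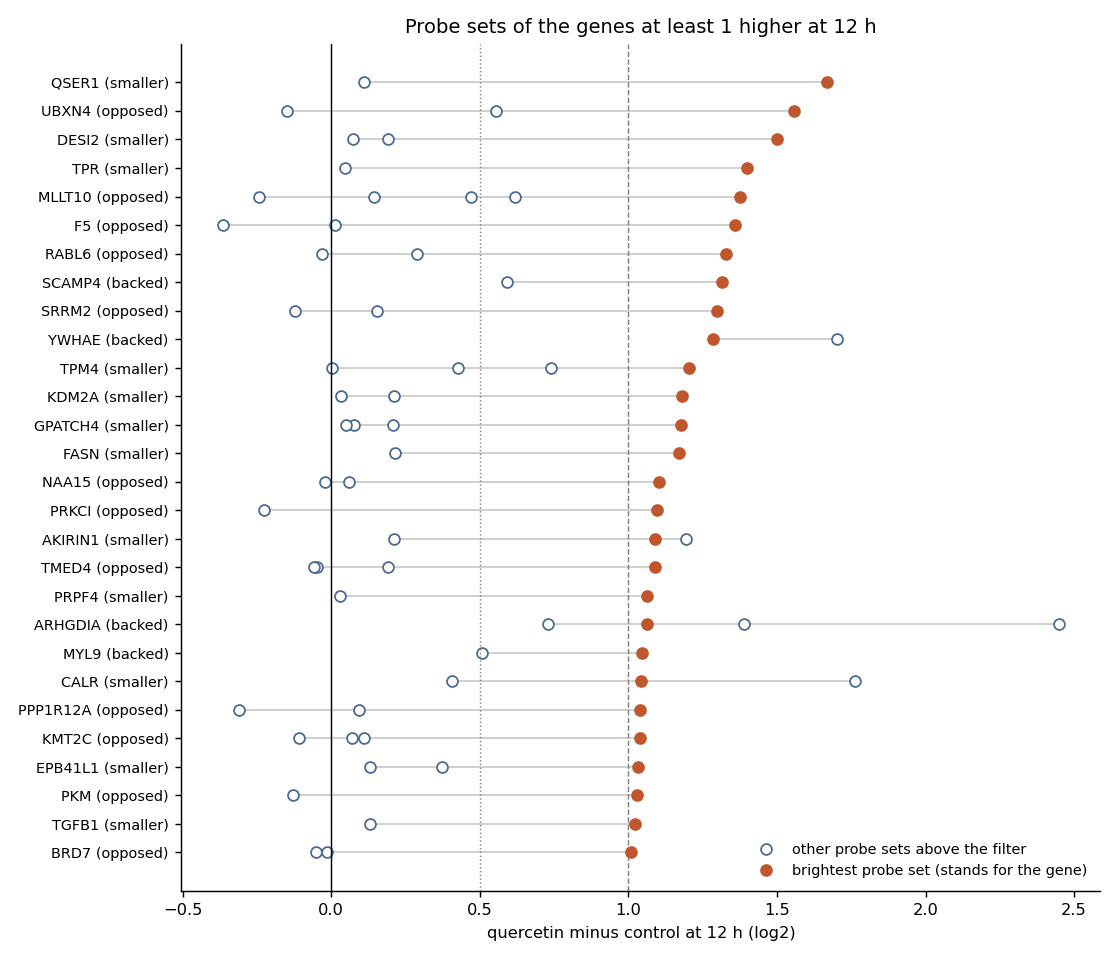
Differences between quercetin and control at 12 h (horizontal axis, log2) for every probe set above the filter of the 28 genes that are at least 1 higher and have several. Filled points are the brightest probe sets, which stand for the gene. Open points are the others, of which 12 genes have 1 or more below 0 (UBXN4, F5, PRKCI and PPP1R12A among them) and the farthest of YWHAE and ARHGDIA lie beyond the brightest, at 1.7 and 2.45.

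The 4 backed genes differed in which array was unusual. SCAMP4, a carrier protein of secretory membranes, read 8.77 and 10.08, and its second probe set differed by 0.59. The control array was its lowest and the quercetin array its highest. YWHAE, a 14-3-3 adaptor protein, read 11.32 and 12.60, with a second probe set at 9.35 and 11.05. Its other 6 arrays lay between 12.54 and 13.01, so its control at 12 h was low and its quercetin level was not high. ARHGDIA had 4 probe sets, which differed by 0.73, 1.06, 1.39 and 2.45, the largest of them in a probe set that read 6.87 in control. Those at 0.73, 1.06 and 1.39 are of the x type, which may also bind other transcripts, so their agreement may not be independent. MYL9 differed by 1.05 and 0.51, with the quercetin array the highest of the 8 and the 12 h control, at 8.54, amid the other controls of 8.88, 8.12 and 8.46.

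Lower on the scale, 46 genes were backed and at least 0.5 higher. PPDPF, a pancreatic progenitor factor, differed by 0.98, 0.99 and 1.02 over 3 probe sets. PRRC2A, an RNA-binding protein, differed by 0.97, 0.71 and 0.63. Every probe set of PPDPF and PRRC2A above the filter is of the x type, which may also bind other transcripts, so their agreement may not be independent. HMGA1, a chromatin protein of growing cells, differed by 0.87 and 1.09, and SF3A2, a splicing factor, by 0.96 and 0.90. The control array at 12 h was the lowest of the 8 in 31 of the 46, and the quercetin array lay above every control in 22. Measured from the controls at 2, 4 and 24 h, 7 of the 46 stayed at least 0.5 higher: LINC00342, MYL9, PRKAR1B, PTGR1, RNF19B, UCP2 and VARS1, named here after their values were seen. PTGR1 is a prostaglandin and alkenal reductase known as an NRF2 target, and it differed by 0.79 at 12 h. CD7 and CD74, best known from leukocytes, were also among the 46, at 0.96 and 0.93, with the highest level of each on the 24 h control array.

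Control probe sets laid along one transcript differed unequally in the 12 h pair. ACTB, beta-actin, was 0.38 higher with quercetin at its 3′ probe set, 0.69 in the middle and 0.90 at the 5′ probe set. The 5′ probe set read 12.61 in control and 13.50 with quercetin, the lowest and the highest of the 8 arrays. GAPDH, a glycolytic enzyme, differed by 0.15, 0.26 and 0.27 from 3′ to 5′. In the other pairs the ACTB differences lay between -0.27 and 0.06. The 28S rRNA probe sets differed by -0.01, 0.02 and 0.79 at 12 h, and the 5′ one of them by 2.11 at 2 h and -1.16 at 24 h, so the 12 h pair was not the widest for 28S. A 3′ array primes from the poly(A) tail, so the 5′ probe sets read the far end of the copied RNA. The part of this in the genes at least 1 higher was not tested, since the place of each probe set on its transcript was not used here.

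**Figure D4:**
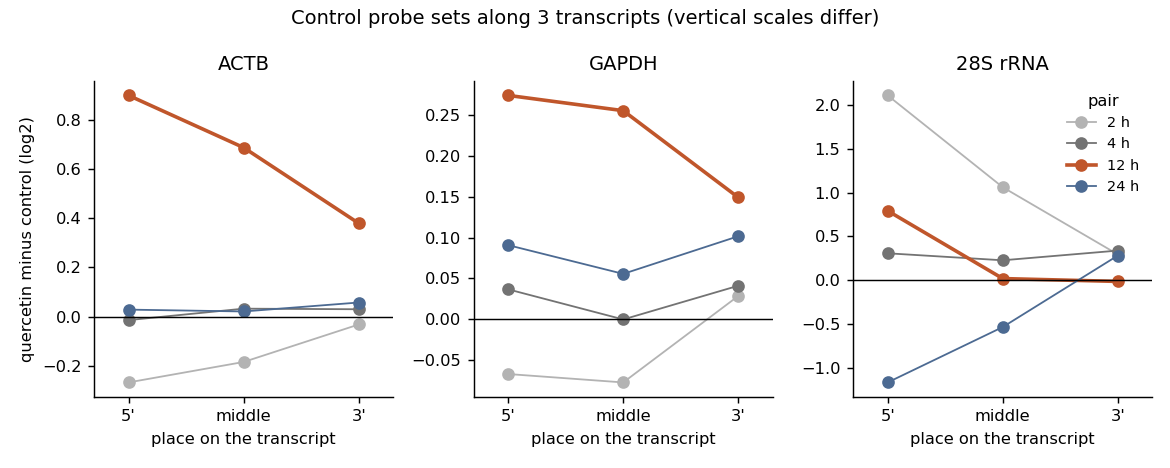
Quercetin minus control (vertical axis, log2, scales differ between panels) for the 5′, middle and 3′ control probe sets of ACTB, GAPDH and 28S rRNA in the pairs at 2, 4, 12 and 24 h. The 12 h pair (orange, thick) slopes from 0.90 at the 5′ end of ACTB to 0.38 at the 3′ end, while the 4 h and 24 h pairs stay near 0 for ACTB. For 28S the 2 h and 24 h pairs reach 2.11 and -1.16 at the 5′ end.

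Genes with the largest negative differences had few shared roles. HINT3, a histidine triad hydrolase, read 10.60 in control and 8.96 with quercetin, a difference of -1.64. Its levels at 24 h were 9.22 in control and 8.43 with quercetin, while both arrays at 2 and 4 h lay between 10.10 and 10.77. The level on the quercetin array at 12 h was thus nearer to the 24 h arrays than that of its control. TCP11L2 read 9.53 and 8.52, and its other controls lay between 7.66 and 8.36, so its control at 12 h was high. GDPD1, a lysophospholipase, read 8.08 and 7.09, and H2AC6, a histone H2A gene, 8.87 and 8.08, the lowest of the 8 arrays. PLXNC1, a semaphorin receptor, read 9.38 and 8.57, with the control above quercetin in each pair. The noncoding RNAs ZFHX4-AS1 (-0.99), HOTTIP (-0.90), DLEU2 (-0.83), THUMPD3-AS1 (-0.83) and MIR570HG (-0.81) were also among the 15 lowest, and in each of them the control array at 12 h was the highest of the 8. In the list of nuclear and snoRNA-host noncoding RNAs 9 of 11 were higher, beside 59.3% of all genes. Its median of 0.13 was -0.0014 after quantile normalization and -0.046 against the mean of the controls at 4, 12 and 24 h. The 2 backed genes at least 0.5 lower were DLEU2, at -0.83 and -0.84, and GPALPP1, at -0.65 and -0.59. These probe sets too are of the x type.

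The metabolic lists are read against all genes, of which 59.3% were higher, with a median of 0.05, and 4.19% at least 0.5 higher. Glycolysis and hypoxia targets were 26 of 36 higher, with a median of 0.22, and 3 were at least 0.5 higher. These were PKM, PFKFB3, which makes the activator of phosphofructokinase, and HK2, hexokinase. PFKFB3 differed by 0.64 and HK2 by 0.55, with a probe set of HK2 of the opposite sign. After cyclic loess the median was 0.06. Fatty acid synthesis genes were 11 of 16 higher (median 0.16), and FASN alone was at least 0.5 higher. ACLY, which makes cytosolic acetyl-CoA, differed by 0.32 and SREBF1, their transcription factor, by 0.24. Cholesterol synthesis genes were 14 of 19 higher (median 0.11), with MVD at 0.57 and DHCR7 at 0.50.

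Stress-response lists held single members of some size. Of 28 measured p53 targets 17 were higher (median 0.03), close to the 59.3% and 0.05 of all genes, among them GDF15, a stress cytokine, at 0.72, PMAIP1, a pro-apoptotic protein, at 0.67, and SESN2 at 0.60. GDF15 differed by 0.03 against the mean of the controls at 4, 12 and 24 h. Of 34 genes of the amino acid response through ATF4, 23 were higher (median 0.15), with CEBPB at 0.60 and TRIB3 at 0.44, and the median was -0.03 against those controls. Heat shock genes were 18 of 22 higher (median 0.16), none by 0.5, with DNAJB1 at 0.47. Endoplasmic reticulum stress genes were 18 of 27 higher (median 0.03), and CALR was the one past 0.5.

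Bright housekeeping lists followed the array. Cytosolic ribosomal proteins were 47 of 50 higher at 12 h, but by a median of 0.10, and 1 was at least 0.5 higher. After cyclic loess 9 of 50 were higher, with a median of -0.10, and against the mean of the controls at 4, 12 and 24 h 24 of 50 were. Over all genes these 3 shares were 59.3%, 46.9% and 47.7%. For the same 3 measures the NRF2 list stood at 32, 27 and 32 of 33. HepG2 and hepatocyte markers were 15 of 16 higher by a median of 0.14, and 5 of 16 were higher after cyclic loess. Respiratory chain genes were 43 of 65 higher (median 0.06) and 17 of 65 after cyclic loess. In these lists the direction of the median turned with cyclic loess, while that of the NRF2 list stayed, at 0.25.

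Cell cycle genes differed little within the pair but more from the other controls. Of 41 G1/S and replication genes 27 were higher at 12 h (median 0.06) and none reached 0.5. Of 45 mitotic genes 23 were higher (median 0.01), again none by 0.5. Over all genes 59.3% were higher and 4.19% at least 0.5 higher. From the mean of the controls at 4, 12 and 24 h 35 of 41 and 37 of 45 were higher, with medians of 0.23 and 0.15. For all genes the share was 47.7% and the median -0.01. In the G1/S list the highest of the 8 arrays was the 2 h control for 16 genes, the quercetin array at 12 h for 11 and its control for 7. In the mitotic list it was the 24 h control for 18 genes and the 12 h arrays for 10 and 6. Replication-dependent histones, whose transcripts mostly lack a poly(A) tail, had a median of -0.11 over 10 members, led by H2AC6.

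**Figure D5:**
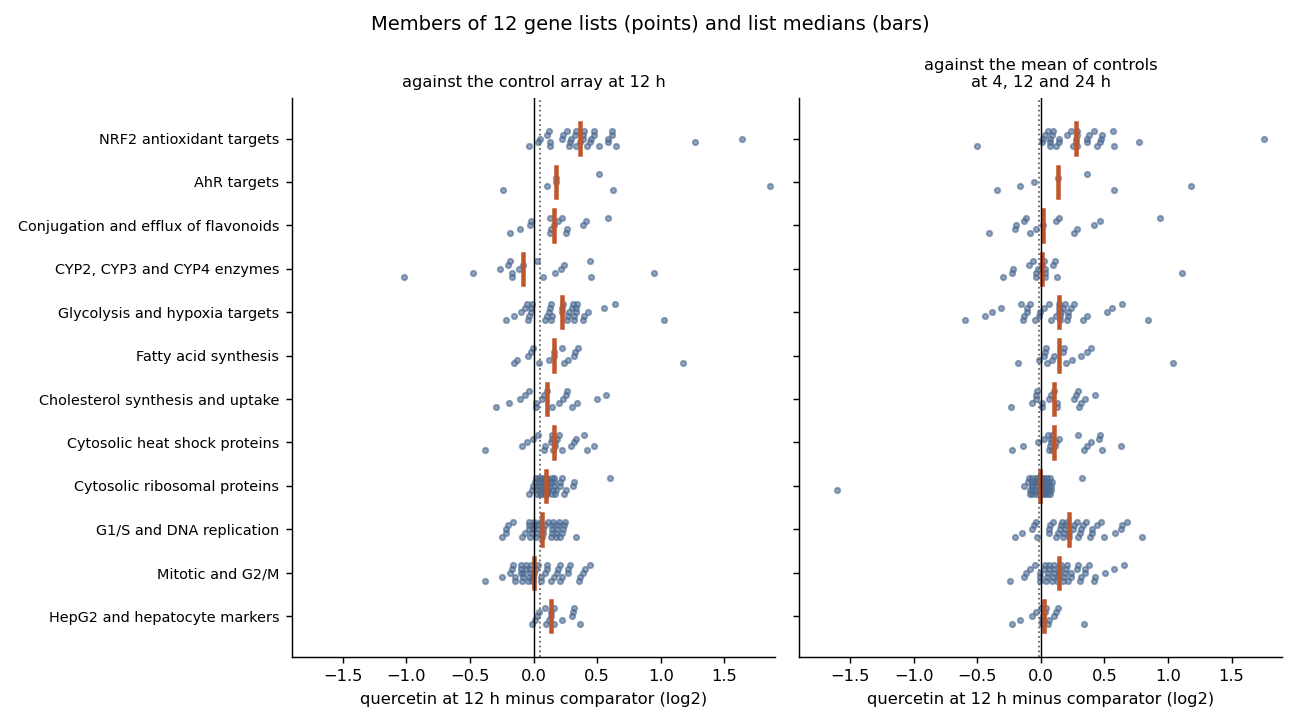
Members of 12 gene lists (points) and list medians (orange bars), as quercetin at 12 h minus the control array at 12 h (left) or minus the mean of the controls at 4, 12 and 24 h (right), in log2 on the horizontal axis. Dotted lines are the median of all genes, 0.05 and -0.01. The NRF2 list keeps a median of 0.36 and 0.28, while that of the ribosomal proteins goes from 0.10 to -0.003.

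The cell type label held on both arrays. ALB, serum albumin, read 14.91 in control and 15.03 with quercetin, AFP, alpha-fetoprotein, 14.46 and 14.47, and APOA1, an apolipoprotein, 14.72 and 14.81. PTPRC, the pan-leukocyte phosphatase, read 7.6 and 7.79 and CDH5, endothelial cadherin, 5.87 and 6.16. COL1A1, a collagen of fibroblasts, read 9.22 and 9.25, above the filter. LYZ, lysozyme, from the leukocyte list, read 13.40 and 13.94. The median level of the 18 leukocyte markers on the array was 7.44 and 7.53, and over the 8 arrays it ran from 7.41 to 7.63. Of 20 leukocyte markers 9 passed the filter and 8 of them were higher at 12 h, beside 59.3% of all genes. The part of other cell types in the differences was not tested.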

How the data were processed

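Gene expression was measured on 8 Affymetrix 3′ arrays, of which the control and quercetin arrays at 12 h were compared and the other 6 served as a yardstick. The values are log2 levels of 54675 probe sets in a table the authors deposited. Per the submitters' processing notes they were made by RMA, its version and settings being not given in the sources used here. Intensities before RMA were not used. With 1 array per treatment and time, the small number of arrays limits precision.

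A single gene symbol was found for 41091 probe sets (41037 of them brought up to date by Entrez identifier), and 1801 with several symbols were not named. Another 62 are Affymetrix controls, and 11721 have no entry in the annotation. A gene took its brightest probe set over the 8 arrays, and genes with a mean above 7.43 were kept. Named were the 15 largest differences in each direction, the 15 largest in each direction backed by all probe sets, up to 6 members of each described list and members of counts of 5 or fewer. The rest were chosen after their values were seen, and all members and the 42 lists were chosen with earlier results of these data known. Alternatives were other filters, probe set rules, thresholds, median centring, cyclic loess and quantile normalization (limma 3.58.1, R 4.3.3), and the mean of 3 controls. The mean of the controls at 2, 4 and 24 h was added after the data were seen. Levels come from Python 3.11.15 with pandas 2.3.3. The code was tested on simulated data. Promoters are those of RefSeq, GRCh38.p14.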

Additional observations from a re-analysis of the deposited data

Results flagged for a closer look

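Some genes and a list differed in opposite directions at 12 h and at another time. The difference between times was not tested. PEG3-AS1, an imprinted antisense RNA, was 1.62 higher at 12 h and differed by -1.10 at 24 h. Its probe set was lowest on the control array at 12 h and highest on the quercetin array at 2 h. The 5′ control probe set of 28S rRNA had its lowest and highest levels on the same arrays. Both probe sets were higher with quercetin at 2 and 12 h and lower at 24 h, while at 4 h PEG3-AS1 hardly differed. The part of such array differences in the PEG3-AS1 values was not tested. MLLT10 was 1.37 higher at 12 h and differed by -0.68 at 2 h, BPIFB2 was 1.34 higher and differed by -0.60 at 2 h, and CNOT3 was 1.30 higher and differed by -0.67 at 2 h. TCP11L2 differed by -1.01 at 12 h and 0.58 at 4 h, and CYP3A5 by -1.02 at 12 h and 0.51 at 24 h. In CNOT3, MLLT10, BPIFB2 and PEG3-AS1 the control array at 12 h was the lowest of the 8, and in TCP11L2 and CYP3A5 it was the highest. Glycolysis and hypoxia targets had a median of 0.22 at 12 h, -0.28 at 2 h and -0.22 at 4 h.

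Probe sets with no gene in the annotation used here also held large differences. Of 3807 above the filter, 11 (0.289%) were at least 1 higher at 12 h and 5 (0.131%) at least 1 lower. Over all genes these shares were 0.323% and 0.0226%. Of the 11, 9 lay above all 4 controls, as did 28 of the 43 genes at least 1 higher. Among these 9 probe sets the largest difference was 1.84, in one that read 6.43 in control and 8.27 with quercetin. Its controls at 2, 4 and 24 h read 7.87, 7.59 and 7.425, so its 12 h control was the low one. Its quercetin array at 24 h read 8.27. The next read 6.79 and 8.62, a difference of 1.82, and its other controls lay between 7.65 and 7.89.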

How the results depend on the processing

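The 43 genes at least 1 higher were 14 with probe sets averaged, 27 after cyclic loess, 7 against the mean of the controls at 4, 12 and 24 h, 10 against that at 2, 4 and 24 h, 338 at a threshold of 1.5-fold and 171 as single probe sets. The 3 genes at least 1 lower were 1 with the filter at the 75th percentile and with the mean of probe sets, 5 after median centring or cyclic loess, 6 after quantile normalization, 14 and 29 against those means of controls, 79 at 1.5-fold and 8 as single probe sets. The share of backed genes ran from 4.76% with gene-specific probe sets to 14.3% over the alternatives it could be computed for, within the 95% exact interval (4.03% to 32.7%, counting error only). The NRF2 median of 0.36 was 0.24 with the mean of probe sets, 0.25 after cyclic loess, 0.25 after quantile normalization and 0.22 against the controls at 2, 4 and 24 h (25 of 33 members higher), and was positive under every alternative run. Against the controls at 4, 12 and 24 h the medians of ERK feedback genes (-0.12), TGF-beta targets (-0.047), NF-kB and acute phase genes (-0.10), ATF4 genes (-0.029) and noncoding RNAs (-0.046) turned, as did the differences of PEG3-AS1 (-0.46), CALR (-0.44) and TCP11L2 (0.0049). Against those at 2, 4 and 24 h these 5 medians were -0.15, -0.18, -0.18, -0.058 and -0.10, those of conjugation genes (-0.067), peroxiredoxins (-0.037) and HepG2 markers (-0.050) turned, and PEG3-AS1 was at -0.90, CALR -1.03, YWHAE -0.22, BPIFB2 -0.056, TCP11L2 0.45 and CYP3A5 0.12. After cyclic loess the medians of proteasome subunits (-0.0068) and HepG2 markers (-0.072) turned, and after quantile normalization those of proteasome subunits (-0.015) and noncoding RNAs (-0.0014) and the difference of PRPF4 (-0.067). With gene-specific probe sets F5 (-0.36), NAA15 (-0.022), PRKCI (-0.23), PPP1R12A (-0.31), KMT2C (-0.11) and BRD7 (-0.050) turned, and NAA15 (-0.022) also did with the median of probe sets. The cause of these turns was not tested. The other values kept their direction where they had been at least 1 for a gene or 0.1 for a list. Smaller list medians were not counted as turned. Among them, those of ribosomal proteins (0.098) and of myosin and cytoskeleton regulators (0.097) were -0.098 and -0.026 after cyclic loess. No array was left out in turn, since each treatment and time has 1 array, and no depth is known for arrays. No paired analysis was possible because the comparison at 12 h holds a single pair of arrays.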

Other observations

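Some list members differed by more, in size, from the mean of the controls at 4, 12 and 24 h than within the 12 h pair. With 1 array per treatment and time, time and array cannot be told apart here. VCL, a focal adhesion protein, differed by 0.32 within the 12 h pair and by 0.70 against the mean of the controls at 4, 12 and 24 h, and DNAJB4, a heat shock cochaperone, by -0.38 and 0.47. HSPH1, a large heat shock protein, differed by 0.32 and 0.63. YAP and serum response targets were 18 of 23 higher within the pair, beside 59.3% of all genes, with a median of 0.18. TPM4 and MYL9 were the 2 that were at least 1 higher, beside 0.323% of all genes.

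Some lists differed between comparators. NF-kB and acute phase genes were 16 of 21 higher at 12 h with a median of 0.15, beside 59.3% of all genes. Against the mean of the controls at 4, 12 and 24 h 7 of 21 were higher, beside 47.7% of all genes. In 11 of the 21 the control array at 12 h was the lowest of the 8, where it was for 20.2% of all genes. Immediate early genes were 13 of 20 higher within the pair, with a median of 0.06, near the 59.3% and 0.05 of all genes. Against that mean 4 of 20 were higher, with a median of -0.21.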
